A study of Mus musculus with 3 samples.

Results

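The 6 genes described here, H2-M2, H2-M3, H2-Q6, H2-Q7, H2-T22 and H2-T23, encode mouse nonclassical MHC class I heavy chains. They were taken as listed from the 31053 genes of the deposited matrix, and all 6 were detected. In an earlier look at the same data H2-M2 was chosen by its measured RNA levels, high in mature dendritic cells (DCs) and lower with panobinostat in type 2 conventional DCs, so both of those patterns are given below as descriptions with no test. Single-cell RNA was measured in C57BL/6 mouse spleen cells enriched for DCs, pooled in 1 capture with 10x 3' v3 chemistry. The 6 hashed samples were leukemia with panobinostat 1 and 2, WT with panobinostat, leukemia with vehicle 1 and 2, and WT with vehicle. Panobinostat, a histone deacetylase inhibitor, or its vehicle was given for 2 days. The leukemia mice carried an acute myeloid leukemia, and spleen cells of every group were sorted as GFP-negative and then enriched for DCs by magnetic negative selection. The ages of the mice were not given in the sources used here, nor whether each hashed sample was a separate animal, so p-values measure the spread between hashed samples, which may be technical.

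MHC class I molecules pair a heavy chain with beta-2 microglobulin on the cell surface. The classical heavy chains vary between mouse strains and show peptides to CD8 T cells, whereas the nonclassical ones vary little and are read by specialised T cells and by natural killer (NK) cell receptors. DCs use both kinds when they meet T cells and NK cells, and interferon and NF-kappaB signals are known to raise class I transcription.

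All 6 genes lie on chromosome 17 and are annotated as protein-coding. On GRCm38, H2-Q6 spans positions 35424850 to 35430055 and H2-Q7 spans 35439155 to 35443773, both on the plus strand and 9099 bases apart. H2-T23 (36029773 to 36032855) and H2-T22 (36037128 to 36042747) lie 4272 bases apart on the minus strand. H2-M3 (37270220 to 37274484, plus strand) and H2-M2 (37480851 to 37483552, minus strand) lie 206366 bases apart. Promoters of 4 of the genes are shown because these genes differ in the cell class with their highest RNA and in the motifs found. Each sequence is the RefSeq promoter of GRCm38.p6, from 250 bases before to 50 bases after the start site, read 5' to 3' on the gene's own strand. Capitals mark a match to the interferon-stimulated response element (ISRE), searched as GAAA, any 2 bases and GAAA, or to a class I kappaB site, searched as GGGGA, any 1 base and TCCCC, on either strand.
H2-T23 promoter, chr17:36032652-36032951, minus strand: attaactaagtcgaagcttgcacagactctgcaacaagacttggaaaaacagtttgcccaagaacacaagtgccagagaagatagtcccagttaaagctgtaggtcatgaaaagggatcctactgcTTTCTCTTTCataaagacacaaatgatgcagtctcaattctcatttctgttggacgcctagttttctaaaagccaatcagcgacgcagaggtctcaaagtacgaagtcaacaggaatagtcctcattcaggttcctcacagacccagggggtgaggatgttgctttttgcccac
H2-T22 promoter, chr17:36042693-36042992, minus strand: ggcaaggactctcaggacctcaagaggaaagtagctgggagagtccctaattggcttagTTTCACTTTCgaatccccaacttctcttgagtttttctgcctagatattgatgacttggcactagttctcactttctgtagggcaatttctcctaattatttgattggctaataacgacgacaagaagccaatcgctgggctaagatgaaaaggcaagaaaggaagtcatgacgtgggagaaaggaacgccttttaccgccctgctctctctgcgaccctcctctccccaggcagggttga
H2-Q6 promoter, chr17:35424600-35424899, plus strand: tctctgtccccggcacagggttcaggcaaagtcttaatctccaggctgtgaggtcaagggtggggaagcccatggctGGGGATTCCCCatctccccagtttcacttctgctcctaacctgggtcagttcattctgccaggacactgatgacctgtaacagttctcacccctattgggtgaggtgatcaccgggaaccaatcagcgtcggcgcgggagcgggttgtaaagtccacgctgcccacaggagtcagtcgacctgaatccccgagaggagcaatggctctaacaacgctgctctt
H2-M2 promoter, chr17:37483505-37483804, minus strand: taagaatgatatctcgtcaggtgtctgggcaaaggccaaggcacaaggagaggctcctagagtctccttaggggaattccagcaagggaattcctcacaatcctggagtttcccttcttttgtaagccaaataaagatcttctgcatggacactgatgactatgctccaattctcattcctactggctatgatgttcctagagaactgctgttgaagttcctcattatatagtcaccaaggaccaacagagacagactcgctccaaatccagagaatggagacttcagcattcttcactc

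The ISRE letters stood in the H2-T22 and H2-T23 promoters and in 3.44% of 32851 mouse promoters of the same length. The kappaB letters stood in the H2-Q6 promoter and in 0.0487% of them. No exact match to either motif stood in the H2-M2, H2-M3 and H2-Q7 windows. Looser forms were not searched, and the H2-Q7 window held ggggattccca, close to the letters marked in H2-Q6. Another motif, the cAMP response element core TGACGTCA, stood in 1.79% of all promoters and in none of the 6 windows. The 3' ends decide how reads are assigned in this chemistry. Over the last 500 bases of the longest transcript, 25.9% of 91-base windows of H2-T22 were identical to H2-T10, 12.9% of those of H2-T23 occurred in other genes, H2-T-ps among them, and 10.5% of those of H2-Q6 occurred in other genes, H2-Q4 among them. No such window of H2-M2, H2-M3 or H2-Q7 was shared. The counts of H2-Q6, H2-T22 and H2-T23 are therefore uncertain. H2-Q6 and H2-Q7 transcripts were 89.5% identical over their aligned bases but shared no such window.

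Of 38717 barcodes, 19526 cells with 1 hashtag and 170879862 UMIs were kept, 1715 to 6944 cells a sample with median depths of 5316 to 12273 UMIs. Clusters were named from marker genes and are called "-like" because the names rest on RNA alone. Mature DC-like cells numbered 3995, conventional DC2-like (cDC2-like) cells 3542, conventional DC1-like (cDC1-like) cells 3092 and plasmacytoid DC-like (pDC-like) cells 2989, and 4455 cells stayed unnamed. WT with panobinostat held 44 pDC-like cells, against 171 to 1177 in the other samples. Levels are given in CPM, the UMIs of a gene in every 1000000 UMIs summed over a class in a sample, and class levels are compared only within a gene.

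H2-M2 RNA was concentrated in mature DC-like cells, the class named from a marker set with Ccr7, Fscn1 and Ccl22. Ccr7 itself was not among the 10 leading genes of any of its 7 clusters. Its level there averaged 279 ± 78.5 CPM (SD, n = 6 hashed samples), against 21.6 ± 14.4 CPM in cDC2-like, 4.71 ± 3.15 CPM in pDC-like and 2.52 ± 2.20 CPM in cDC1-like cells. The 6 mature DC-like values, 216 to 433 CPM, did not overlap with those of any other named class. Red pulp macrophage-like cells came next with 112 and 192 CPM in the 2 samples that had enough of them, on 36 UMIs over all of those cells. Cells with 2000 or more UMIs were thinned to 2000 and the rest left out. Of the mature DC-like cells so thinned, 27.5% had an H2-M2 UMI (95% exact binomial interval 26.1 to 29.0%, counting error only). Without thinning, 37.5% of all mature DC-like cells did. The thinned share was 2.79% in cDC2-like cells. It was 1.48% in erythroid-like cells, which serve here as a measure of free RNA, and median depths were 4680 UMIs in mature DC-like and 12697 UMIs in erythroid-like cells. The shares of 0.811% in cDC1-like and 0.708% in pDC-like cells lay below the erythroid-like share, so free RNA was not told apart from their own RNA. The pDC-like clusters differed, with 43.4 CPM in cluster 22 (157 cells, 54 UMIs) and 2.31 CPM in cluster 0 (2832 cells, 37 UMIs). Ccr7 stood at 144 CPM in cluster 22 and 14.7 CPM in cluster 0, and its part was not tested.

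**Figure D1:**
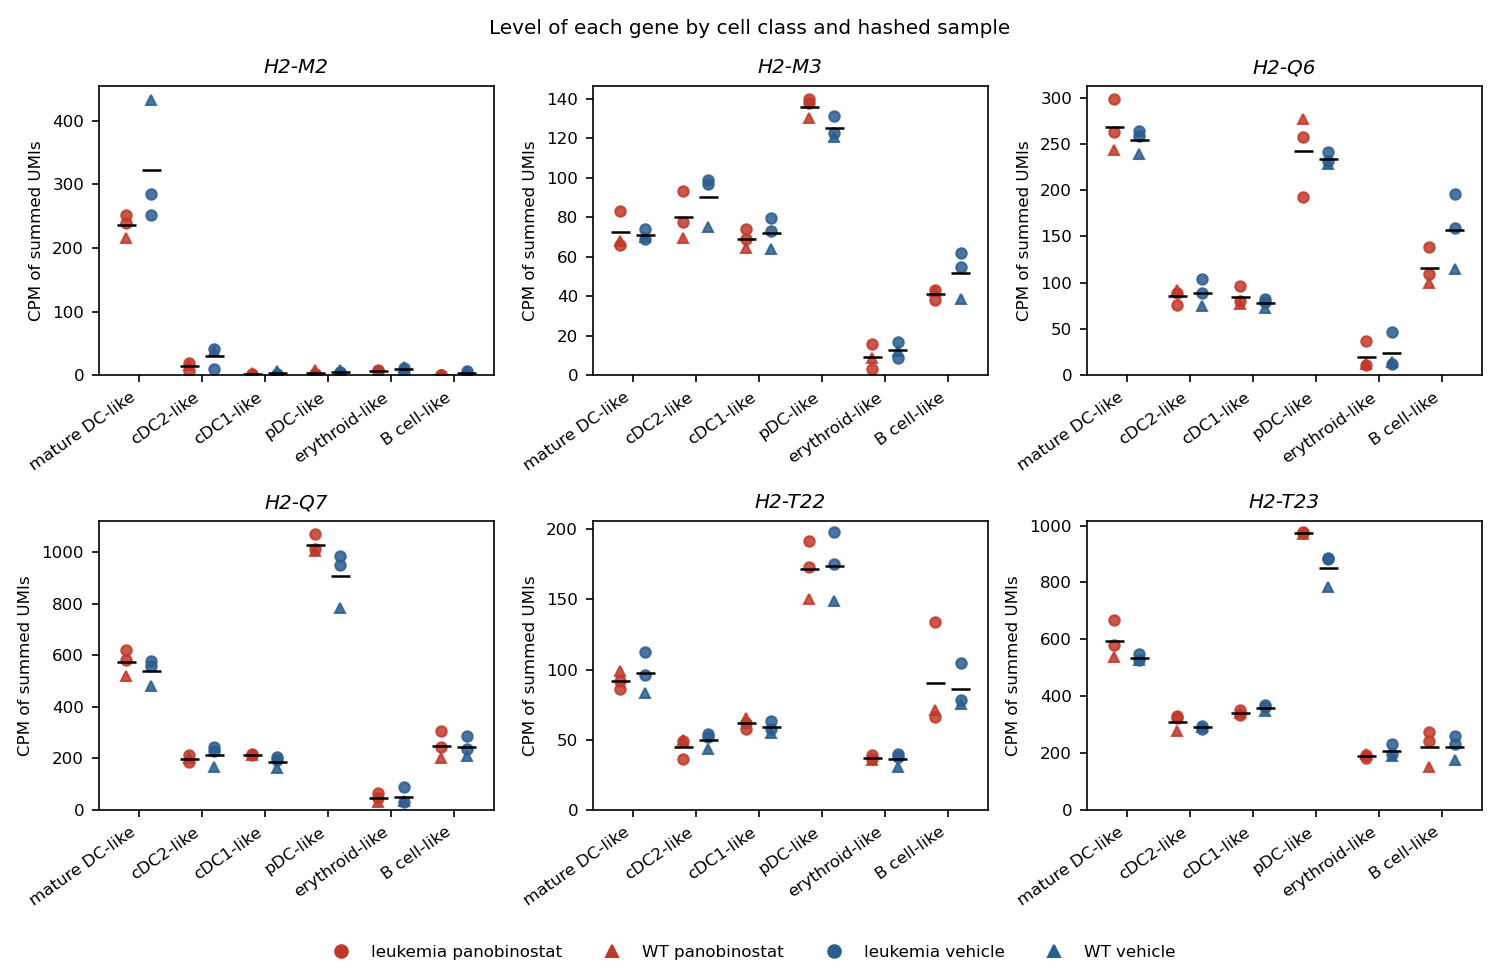
Level of each gene (y axis, CPM of summed UMIs, a separate linear scale per gene) by cell class (x axis), with 1 point per hashed sample, panobinostat in red left of vehicle in blue, leukemia as circles and WT as triangles, and bars at the mean of each treatment. H2-M2 lies between 216 and 433 CPM in mature DC-like cells and at or below 41.1 CPM in every other class drawn.

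Within mature DC-like cells, H2-M2 differed widely between clusters. Cluster 4, in which Dkk2, Crispld2, Ryr3 and H2-M2 itself had the largest folds, held 774 CPM, and cluster 11, led by Ccl17 and Clu with the chemokine gene Ccl22 among its leading genes, held 542 CPM. The lowest level was 73 CPM in cluster 12, led by Il12b, which encodes a subunit of interleukin-12. An unnamed cluster led by the complement genes C1qa, C1qc and C1qb held 226 CPM. The 4 lists of genes outlined below were left out of the clustering, H2-M2 with them, but the levels of clusters are a description.

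The share of cluster 4 among mature DC-like cells was 27.1%, 17.6% and 11.8% in leukemia panobinostat 1 and 2 and WT panobinostat, against 24.7%, 27.7% and 37.1% in leukemia vehicle 1 and 2 and WT vehicle. Within cluster 4, H2-M2 stood at 682, 880 and 451 CPM in those panobinostat samples and at 736, 756 and 845 CPM in those vehicle samples. WT with vehicle had the largest share of this cluster, and WT with panobinostat had both the smallest share and the lowest level inside it.

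**Figure D2:**
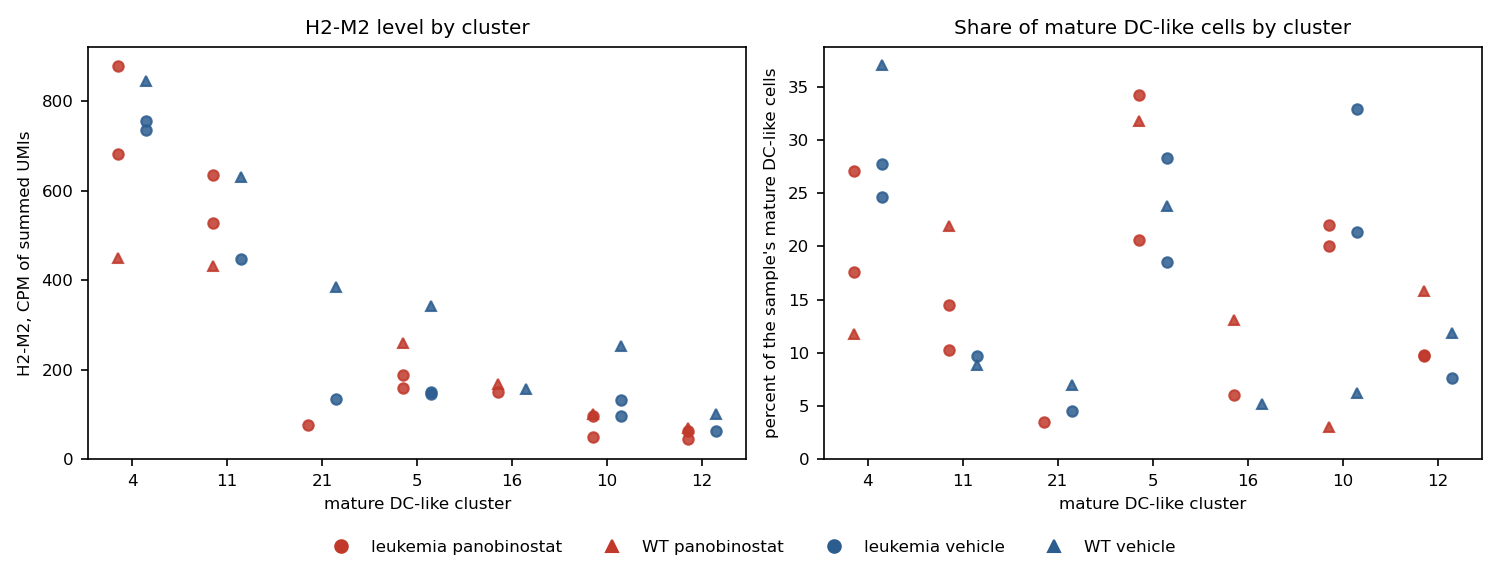
H2-M2 level (left, CPM of summed UMIs) and share of each sample's mature DC-like cells (right, percent) by mature DC-like cluster, ordered by level, with 1 point per hashed sample that had 20 or more cells in the cluster. Panobinostat is drawn left of vehicle. Cluster 4 has the highest level when all samples are summed, and its share runs between 11.8% and 37.1%.

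Over all mature DC-like cells, H2-M2 had 252, 240 and 216 CPM in leukemia panobinostat 1 and 2 and WT panobinostat, against 252, 285 and 433 CPM in leukemia vehicle 1 and 2 and WT vehicle. The groups touched, with 1 leukemia vehicle sample inside the panobinostat range, and WT with vehicle stood apart above the rest. The panobinostat log2 fold change was -0.37 (SE 0.14) and was not called by edgeR's quasi-likelihood test (adjusted p = 0.27). In a sum over a class, fewer cells of a subset and less RNA per cell cannot be told apart.

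The panobinostat effect on H2-M2 in mature DC-like cells was called as different between disease states by edgeR, in a test with 1 WT sample of each treatment that was lost in 8 of 14 alternatives. The panobinostat level was 0.917 times the vehicle level in leukemia and 0.498 times in WT. The difference of the log2 fold changes, leukemia minus WT, was 0.87 (SE 0.17, edgeR adjusted p = 0.025), and H2-M2 was the 1 gene called among the 6, where 0.341% of 10256 genes were called. The spread in this test comes from the 4 leukemia samples alone, and each lone WT sample is assumed to vary like them. DESeq2 did not call the difference (adjusted p = 0.39), and edgeR's adjusted p was 0.12, 0.76 and 0.88 without leukemia panobinostat 1, leukemia vehicle 1 and leukemia vehicle 2. It was not called either at the other 2 clustering resolutions, with tags called by ratio or with the listed genes kept in the clustering. In the other 3 DC-like classes no such difference was called by edgeR or DESeq2 for the genes tested. H2-M2 in cDC2-like cells is not among them, because its values there were used to choose it. Of all genes, edgeR called 0.341% in pDC-like, 0.708% in cDC1-like and 0.806% in cDC2-like cells. At an unadjusted p under 0.05, edgeR had H2-Q6 and H2-Q7 in cDC2-like cells and none in the other 2 classes.

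In cDC2-like cells, where H2-M2 was chosen for its difference, it had 19.3, 6.40 and 15.5 CPM in leukemia panobinostat 1 and 2 and WT panobinostat, against 41.1, 9.92 and 37.4 CPM in leukemia vehicle 1 and 2 and WT vehicle. The groups overlapped, because leukemia vehicle 2 was lower than 2 of the 3 panobinostat samples. The log2 fold change of -1.03 is a description. The ratio of panobinostat to vehicle was 0.504 in leukemia and 0.415 in WT. Within cDC2-like cells most H2-M2 UMIs came from cluster 1, led by the metalloprotease genes Mmp9 and Mmp12, with 19.9, 8.90 and 18.7 CPM in the panobinostat samples and 63.8, 17.7 and 45.9 CPM in the vehicle samples, in the same order. The summed mature DC markers in cDC2-like cells ran from 533 to 634 CPM with panobinostat and from 550 to 740 CPM with vehicle. Leukemia vehicle 1 was highest in both H2-M2 and those markers. The part of those markers in the H2-M2 level was not tested.

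H2-M2 in cDC1-like cells was lower in leukemia than in WT. It had 0.823, 1.49, 0.844 and 1.64 CPM in leukemia panobinostat 1 and 2 and leukemia vehicle 1 and 2, against 3.99 and 6.32 CPM in WT panobinostat and WT vehicle, with no overlap. The log2 fold change was -2.23 (SE 0.31, edgeR adjusted p = 5.1e-05), on 170 UMIs in all. All 6 values lay below the highest erythroid-like level of 13.5 CPM, while B cell-like cells averaged 1.85 CPM. At such levels, free RNA of the shared capture was not told apart from RNA of the cells themselves. The summed mature DC markers in these cDC1-like cells were also lower in leukemia, 328 to 646 CPM against 851 to 940 CPM in WT, and their part in the difference was not tested. With tags called by ratio, the log2 fold change was -0.83 and edgeR's adjusted p was 0.13.

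H2-M3, which in mice presents N-formylated peptides of bacteria and mitochondria to CD8 T cells, had its highest level in pDC-like cells. It averaged 131 ± 7.61 CPM there (SD, n = 6), and the 6 values, 121 to 140 CPM, did not overlap with the cDC2-like values that came next at 85.3 ± 12.5 CPM. Mature DC-like cells at 71.7 ± 6.17 CPM and cDC1-like cells at 70.7 ± 6.00 CPM did not differ beyond their spread. Erythroid-like cells held 10.9 ± 5.12 CPM. In cDC2-like cells H2-M3 had 93.2, 77.7, 98.9 and 96.9 CPM in leukemia panobinostat 1 and 2 and leukemia vehicle 1 and 2, against 69.6 and 75.3 CPM in WT panobinostat and WT vehicle. Every leukemia value lay above both WT values, and the log2 fold change of 0.32 (SE 0.11) was not called by edgeR (adjusted p = 0.51).

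H2-Q6 and H2-Q7 encode Qa-2 molecules, of which the H2-Q7 form is known to be anchored in the membrane by a lipid. H2-Q7 averaged 967 ± 98.8 CPM in pDC-like, 556 ± 48.9 CPM in mature DC-like, 206 ± 29.0 CPM in cDC2-like and 200 ± 20.7 CPM in cDC1-like cells (SD, n = 6 each). The cDC2-like and cDC1-like values overlapped, and the pDC-like and mature DC-like values overlapped with neither. H2-Q6 had another order, with 261 ± 20.9 CPM in mature DC-like and 238 ± 28.6 CPM in pDC-like cells, whose values overlapped, and 87.2 ± 10.8 CPM in cDC2-like and 81.4 ± 8.15 CPM in cDC1-like cells. Endothelial-like cells, counted in 3 samples, had the highest mean for H2-Q6, 328 ± 88.6 CPM (SD, n = 3) on 142 UMIs, but their values overlapped with those of mature DC-like cells. For H2-Q7 they held 682 ± 131 CPM (SD, n = 3) on 314 UMIs, again overlapping with mature DC-like cells.

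H2-Q7 was higher with panobinostat in every pDC-like and cDC1-like sample, by less than the test required. In pDC-like cells it had 1010, 1070 and 1005 CPM in leukemia panobinostat 1 and 2 and WT panobinostat, against 985, 949 and 782 CPM in leukemia vehicle 1 and 2 and WT vehicle. The log2 fold change was 0.20 (SE 0.062, edgeR adjusted p = 0.38). In cDC1-like cells it had 214, 217 and 212 CPM in those panobinostat samples and 205, 192 and 162 CPM in those vehicle samples, with a log2 fold change of 0.22 (SE 0.071, edgeR adjusted p = 0.088). Groups did not overlap in this direction for 4.72% of the genes tested in pDC-like and 4.75% of those tested in cDC1-like cells.

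H2-T23 encodes Qa-1, which shows leader peptides of other class I chains to the CD94 and NKG2A receptor of NK cells. It averaged 913 ± 76.5 CPM in pDC-like, 565 ± 54.0 CPM in mature DC-like, 351 ± 13 CPM in cDC1-like and 300.3 ± 20.8 CPM in cDC2-like cells (SD, n = 6 each), and none of these 4 ranges overlapped. Endothelial-like cells held 674 ± 112 CPM (SD, n = 3) on 285 UMIs, and their values overlapped with those of mature DC-like cells. Erythroid-like cells held 198 ± 17.6 CPM. In pDC-like cells H2-T23 had 976, 975 and 972 CPM in leukemia panobinostat 1 and 2 and WT panobinostat, against 883, 886 and 785 CPM in leukemia vehicle 1 and 2 and WT vehicle. Every panobinostat value was higher than every vehicle value, like 4.72% of all genes tested in pDC-like cells. The log2 fold change was 0.22 (SE 0.058) and the change was not called by edgeR (adjusted p = 0.22). The WT panobinostat value came from 44 cells and 239 H2-T23 UMIs. That sample stood apart in markers of other cells, with 6 plasma cell markers summing to 1188 CPM in its pDC-like cells, against 161 to 206 CPM in the other 5 samples, and 8 B cell markers to 216 CPM, against 53.8 to 89.0 CPM. Without it the log2 fold change was 0.17 for H2-T23 and 0.13 for H2-Q7 in pDC-like cells, and neither was called by edgeR (adjusted p = 0.31 and 0.62).

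H2-T22, a ligand of some gamma delta T cell receptors that does not need a bound peptide, averaged 173 ± 20.3 CPM in pDC-like, 94.8 ± 10.5 CPM in mature DC-like, 60.2 ± 3.93 CPM in cDC1-like and 47.4 ± 6.57 CPM in cDC2-like cells (SD, n = 6 each). The pDC-like range lay above the other 3 DC-like ranges. Endothelial-like cells were higher still, at 256 ± 10.6 CPM (SD, n = 3), on 104 UMIs. In pDC-like cells H2-T22 had 192, 173, 176 and 198 CPM in leukemia panobinostat 1 and 2 and leukemia vehicle 1 and 2, against 150 and 149 CPM in WT panobinostat and WT vehicle. These groups did not overlap, and the log2 fold change of 0.26 (SE 0.095) was not called by edgeR (adjusted p = 0.26).

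With panobinostat against vehicle, edgeR called none of the 6 genes in pDC-like, cDC1-like or mature DC-like cells, and none of the 5 that could be tested in cDC2-like cells, and DESeq2 called none either. At an unadjusted p under 0.05, edgeR had H2-Q7 and H2-T23 in pDC-like cells, H2-Q7 in cDC1-like cells, none in cDC2-like cells and H2-M2, H2-Q7 and H2-T23 in mature DC-like cells. Over all genes tested, the share called was 0.153% for pDC-like cells and 4.31% for cDC1-like cells. It was 0.114% for cDC2-like cells and 0.606% for mature DC-like cells. Panobinostat and vehicle values did not overlap in 3 of the 24 pairs of gene and class, those of H2-Q7 and H2-T23 given above. The 95% intervals each hold for a single gene and are not adjusted for the number of genes tested. For H2-T23 in pDC-like cells, which was not called, the interval of the log2 fold change ran from 0.095 to 0.34. For H2-T22 in cDC2-like cells it ran from -0.32 to 0.28.

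**Figure D3:**
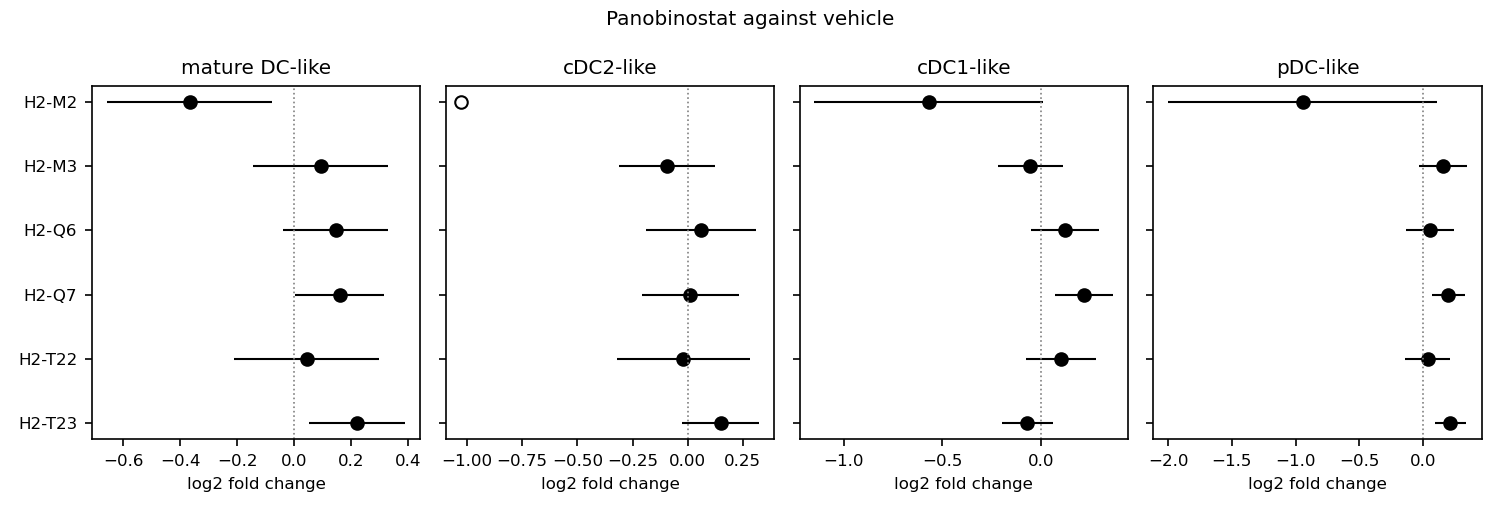
Log2 fold change of panobinostat against vehicle (x axis, a separate scale per panel) for each gene in each DC-like class, with 95% intervals from the edgeR fit and a dotted line at 0. The open point for H2-M2 in cDC2-like cells, at -1.03, is a description without an interval, and no gene was called.

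With leukemia against WT, 1 of the 6 genes was called in cDC1-like cells, the H2-M2 difference given above, where 12.7% of all genes were called. None was called in pDC-like, cDC2-like or mature DC-like cells by edgeR or DESeq2, where edgeR called 1.67%, 0.135% and 2.03% of all genes. At an unadjusted p under 0.05, edgeR had H2-M2, H2-Q7 and H2-T22 in pDC-like cells, H2-M3 and H2-Q7 in cDC2-like cells and H2-M2 in mature DC-like cells. Leukemia and WT values did not overlap in 8 of the 24 pairs of gene and class. In pDC-like cells H2-T22 was higher in every leukemia sample, like 12.4% of all genes tested, and H2-M2 was lower, like 7.08%. The H2-M2 level of 8.13 CPM in WT panobinostat rested on 2 UMIs in 44 pDC-like cells. At such levels, free RNA was not told apart from RNA of the cells themselves. In cDC1-like cells H2-M3 and H2-Q6 were higher, like 23.2%, and H2-M2 was lower, like 7.29%. In cDC2-like cells H2-M3 was higher, like 6.38%, and in mature DC-like cells H2-Q6 and H2-Q7 were, like 10.6%.

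The panobinostat effect in 1 DC-like class was set against that in the other 3 for the 5 genes other than H2-M2, which is left out because each of these contrasts holds its effect in cDC2-like cells. None was called, by edgeR or DESeq2. The lowest unadjusted p was 0.0060, for H2-T23 in cDC1-like cells, with a difference of -0.26 on the log2 scale, an adjusted p of 0.51 and H2-T23 the 1 gene under 0.05. Of all genes, 0.0436% were called in the cDC1-like contrast, 0.0174% in the pDC-like contrast and 0% in each of the other 2.

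**Figure D4:**
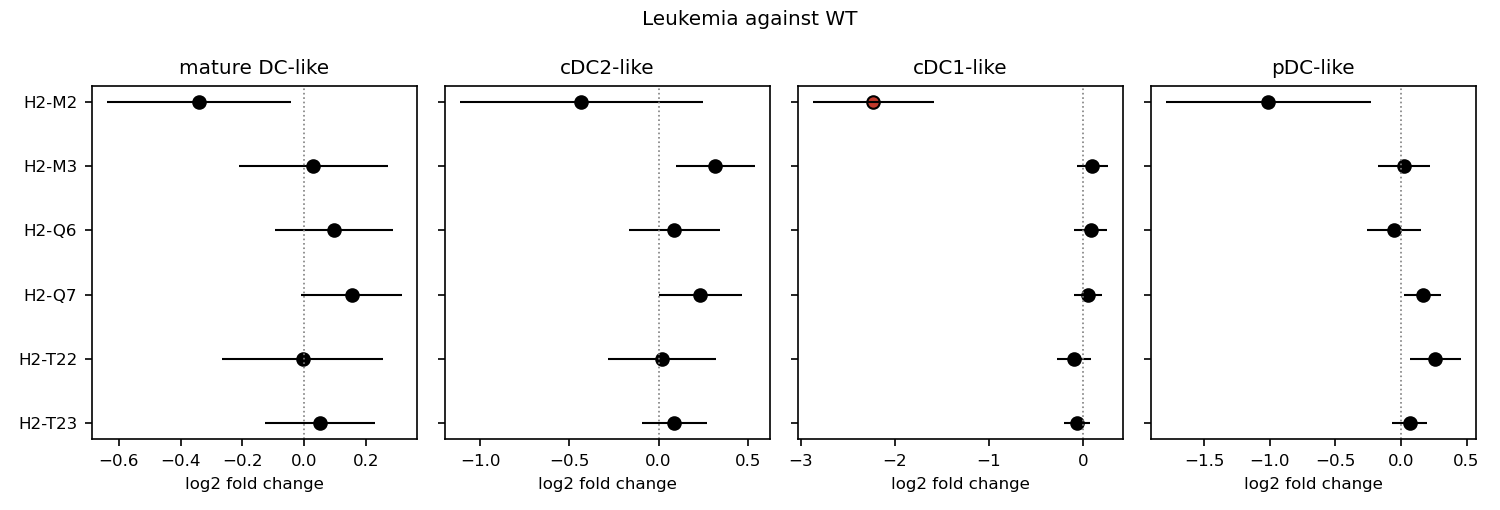
Log2 fold change of leukemia against WT (x axis, a separate scale per panel) for each gene in each DC-like class, with 95% intervals from the edgeR fit, a dotted line at 0 and the called gene in red. H2-M2 in cDC1-like cells, at -2.23, is the called one.

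The 4 lists read beside these genes were the nonclassical family (42 genes), the classical chains with the peptide loading machinery (17), class I transcription regulators (20) and receptors of nonclassical class I (14). In cDC1-like cells, 4 of 17 classical and loading genes rose with panobinostat and none fell, where 301 of 9808 genes rose and 122 fell (4.31% called), and the median log2 fold change was 0.076 in the list and -0.012 over all genes tested. The count for the list ran from 0 to 4 over the alternatives, with 0 after thinning, without leukemia panobinostat 2 and without leukemia vehicle 1. They were Calr (0.33, SE 0.059, edgeR adjusted p = 0.0034) and Pdia3 (0.31), which help to fold class I chains in the endoplasmic reticulum, Psmb8 (0.22), an immunoproteasome subunit, and Canx (0.27), another folding chaperone. Irf1, an interferon-induced activator of class I genes, also rose there (0.41, SE 0.11, edgeR adjusted p = 0.030), as 1 of 20 regulators, and was called in 9 of 18 alternatives. None of the 13 tested genes of the nonclassical family was called in that comparison by edgeR. In mature DC-like cells, Cd8a (0.59) and Klrk1, the gene of the NKG2D receptor (0.76), rose among 7 tested receptor genes, where 0.606% of all genes were called. Cd8a was called in 12 and Klrk1 in 8 of 18 alternatives, and neither without WT panobinostat, without leukemia panobinostat 2 or without leukemia vehicle 1. The 10 cDC1 markers, Cd8a among them, summed in these mature DC-like cells to 1508, 1691 and 2049 CPM in leukemia panobinostat 1 and 2 and WT panobinostat, against 1399, 1363 and 1561 CPM in leukemia vehicle 1 and 2 and WT vehicle, and their part was not tested.

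With leukemia against WT, Hfe, a nonclassical family gene that controls iron uptake, was called lower in 3 classes, where 1.67%, 12.7% and 2.03% of all genes were called in pDC-like, cDC1-like and mature DC-like cells. Its log2 fold change was -1.07 in pDC-like (SE 0.20), -0.67 in cDC1-like (SE 0.081) and -0.55 in mature DC-like cells (SE 0.11), with edgeR adjusted p-values of 0.0032, 1.0e-05 and 0.0100. The cDC1-like call held in 16 of 16 alternatives, the pDC-like call in 11 and the mature DC-like call in 7. Hfe stood at 355 and 186 CPM in cDC1-like clusters 2 and 8, and from 31.9 to 305 CPM over the mature DC-like clusters. The part of cluster shares in these calls was not tested. Without WT vehicle the pDC-like log2 fold change of Hfe was 0.18, so its direction there rests on that sample. Hfe stood at 25.1 CPM in pDC-like and 293 CPM in cDC1-like cells, and the 10 cDC1 markers in pDC-like cells summed to 451 to 462 CPM in leukemia, against 537 and 641 CPM in WT panobinostat and WT vehicle. Their part in the Hfe difference was not tested. In cDC1-like cells 5 of 17 classical and loading genes rose and none fell, where 554 of 9808 genes rose and 691 fell, with Calr at 0.43, Pdia3 at 0.35, Psmb10 at 0.28 and Psmb8 at 0.26 on the log2 scale. Relb, an NF-kappaB subunit, fell in cDC1-like (-0.30) and pDC-like cells (-0.74), and these calls held in 4 and 13 of 16 alternatives. None of the 5 genes H2-M3, H2-Q6, H2-Q7, H2-T22 and H2-T23 was called with them by edgeR or DESeq2.

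Across the 24 sums of DC-like class and sample, log2 levels of H2-Q7 and H2-T22 correlated at r = 0.96 and those of H2-Q6 and H2-Q7 at r = 0.93, while H2-M2 and H2-M3 stood at r = -0.38. These sums share a capture and repeat 4 classes, so r mostly follows class order and is a description. Of 6982 genes with a mean of 10 CPM or more, the 6 genes themselves left out, Ccl5 (r = 0.98), a chemokine gene, Il4i1 and Tmem150c were most like H2-M2, and H2-K1 (r = 0.98), a classical class I gene, with H2-Q4 and Frmd4a most like H2-Q6. The genes most like H2-M3 were Nudcd3, Dnajc7 and Sema4b. Those most like H2-Q7 outside the 6 were Necap2, Sdc4 and Parp3. Slc41a2, Dap and Itm2b were most like H2-T22, and Itm2b, Scand1 and S100a13 most like H2-T23. H2-Q7 and H2-T23 were as alike, at r = 0.97.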

How the data were processed

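The deposited matrix holds raw counts of UMIs, with genes, hashtags and antibody tags as its features, per the file headers. Tools named in the submitters' processing notes are Cell Ranger 3.1.0 and Seurat 3.1.0, with mm10 and GRCm38 as builds. Hashtag names gave each cell's group (D5W read as vehicle, LBH as panobinostat). A tag counted as present past the 99% quantile of a negative binomial fit to its background, and barcodes with 1 tag, 500 or more genes, at most 10% mitochondrial UMIs and a doublet score under 0.5 were kept. That score called 8.39% of single-tag barcodes. Leiden clusters (resolution 1) were named from marker sets. The exclusion of pancreatic enzyme genes and the tie rule for names were set after the data were seen. UMIs were summed by class and hashed sample and tested with edgeR 4.0.16 (TMM scaling, quasi-likelihood test, treatment and disease as terms, Benjamini-Hochberg adjustment over all genes tested, threshold 0.05). On simulated cDC2-like counts for panobinostat against vehicle over 9463 genes, 94% of 2-fold and 64% of 1.5-fold increases were called, and 86% of 2-fold and 58% of 1.5-fold decreases. These changes were planted in well-counted genes only, with the same spread for every gene and no disease effect. The shares therefore do not give the power for genes with fewer UMIs or a wider spread. The 6 genes and the lists were chosen with earlier results of these data known. Named were all 6 genes, up to 4 called genes a list and comparison, and the 3 genes most alike by Pearson's r. Alternatives were RLE scaling, DESeq2, no filter on low counts, each sample left out, leukemia samples alone with and without a replicate block, thinning to 2000 UMIs, a ratio call of tags, no doublet filter, Leiden resolutions of 0.5 and 2, listed genes kept in the clustering, and H2-Q6 summed with H2-Q7. Thinning left out cells with fewer than 2000 UMIs.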

Additional observations from a re-analysis of the deposited data

Results flagged for a closer look

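The panobinostat effect on H2-M2 in mature DC-like cells was called as different between leukemia and WT by edgeR's test of the difference, with a difference of log2 fold changes of 0.87 (SE 0.17, edgeR adjusted p = 0.025). The adjusted p ran from 1.6e-04 to 0.88 over 14 alternatives, 6 of which kept the call, and the difference stayed positive in all 14 (0.66 to 1.0). There is 1 WT sample of each treatment, so the spread in this test comes from the 4 leukemia samples alone and each WT sample is assumed to vary like them. The share of cluster 4, the mature DC-like cluster with the most H2-M2, was 11.8% in WT panobinostat and 37.1% in WT vehicle, and its part in the difference was not tested.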

How the results depend on the processing

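Over 13 to 18 alternatives each, 30 of 72 changes (6 genes, 4 DC-like classes, 3 comparisons) kept their sign in all and 42 turned in at least 1. No tested panobinostat change was called in pDC-like, cDC1-like or cDC2-like cells under any of these alternatives, nor any tested difference between classes. In mature DC-like cells 1 gene was called for panobinostat with tags called by ratio (H2-T23), without the low-count filter (H2-M2) and in leukemia samples alone with the replicate block (H2-T23). Same-numbered leukemia samples showed little deviation in common (r of -0.0058 to 0.083 over genes). What the shared number stands for was not given, and whether such samples share a batch was not tested. For the H2-M2 difference between disease states in mature DC-like cells, 0 genes were called with DESeq2, at Leiden resolutions of 0.5 and 2, with tags called by ratio and with listed genes kept in the clustering, and 0 to 1 with single samples left out. For leukemia against WT in cDC1-like cells, 0 were called with tags called by ratio and after thinning, where H2-M2 was too low to be tested. In pDC-like cells 1 (H2-M2) was called at Leiden resolution 0.5, with tags called by ratio and without the doublet filter, and 0 to 1 (H2-Q7) with single samples left out. In mature DC-like cells 1 (H2-M2) was called without the low-count filter, and 0 to 1 (H2-M2) with single samples left out. In cDC2-like cells it was 0 to 1 (H2-Q7). Without 1 of the WT samples the difference between disease states could not be fitted. The cause of these changes was not tested. Under the main settings, H2-M2 in pDC-like cells rested on 91 UMIs in all, 2 of them in WT panobinostat.

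Mean levels in the DC-like class with the highest mean kept within 1 SD except that H2-M2 in mature DC-like cells was 359 CPM with listed genes kept in the clustering and 365 CPM after thinning, and H2-M3 in pDC-like cells was 123 CPM without the doublet filter and 139 CPM after thinning. H2-Q6 in mature DC-like cells was 302 CPM with tags called by ratio, 313 CPM at Leiden resolution 2, 312 CPM with listed genes kept and 321 CPM after thinning. Summed, H2-Q6 and H2-Q7 held 817 CPM in mature DC-like and 1205 CPM in pDC-like cells.

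The sign of the log2 fold change turned as follows, with no call under that alternative for any value tested. The H2-M2 differences between disease states in cDC2-like cells are descriptions. With tags called by ratio, the difference between disease states was 0.0071 for H2-M3 in cDC1-like cells, -0.58 for H2-M2 in cDC2-like cells, -0.040 for H2-M3 and -0.24 for H2-Q6 in mature DC-like cells, 0.038 for H2-M2, -0.066 for H2-M3 and -0.22 for H2-T22 in pDC-like cells. With tags called by ratio, the leukemia against WT change was -0.00098 for H2-Q6 in cDC1-like cells, 0.38 for H2-M2 in cDC2-like cells, -0.015 for H2-Q6 and -0.037 for H2-T23 in mature DC-like cells. With tags called by ratio, the panobinostat change was 0.037 for H2-T22 in cDC2-like cells, 0.038 for H2-M2 in pDC-like cells. At Leiden resolution 2, the difference between disease states was 0.035 for H2-T23 in cDC1-like cells, -0.93 for H2-M2 in cDC2-like cells, -0.26 for H2-Q6 and -0.016 for H2-T23 in mature DC-like cells, -0.14 for H2-M3 in pDC-like cells. At Leiden resolution 2, the leukemia against WT change was 0.53 for H2-M2 and -0.0017 for H2-T22 in cDC2-like cells, -0.023 for H2-Q6, -0.0034 for H2-Q7 and -0.0077 for H2-T23 in mature DC-like cells, 0.012 for H2-Q6 in pDC-like cells. At Leiden resolution 2, the panobinostat change was 0.11 for H2-M2 in cDC1-like cells, -0.026 for H2-Q6 and 0.014 for H2-T22 in cDC2-like cells, -0.012 for H2-T22 in pDC-like cells. With listed genes kept in the clustering, the difference between disease states was 0.037 for H2-T23 in cDC1-like cells, -0.16 for H2-Q6 in mature DC-like cells. With listed genes kept in the clustering, the leukemia against WT change was -0.013 for H2-Q6 in mature DC-like cells. Without the doublet filter, the difference between disease states was 0.0057 for H2-T23 in cDC1-like cells, 0.14 for H2-M2 and -0.013 for H2-T22 in pDC-like cells. Without the doublet filter, the leukemia against WT change was -0.0063 for H2-T22 in cDC2-like cells, 0.0093 for H2-T22 in mature DC-like cells, 0.0026 for H2-Q6 in pDC-like cells. Without the doublet filter, the panobinostat change was 0.026 for H2-T22 in cDC2-like cells. At Leiden resolution 0.5, the difference between disease states was -0.88 for H2-M2 in cDC2-like cells, -0.021 for H2-Q6 in mature DC-like cells, -0.026 for H2-T22 in pDC-like cells. At Leiden resolution 0.5, the leukemia against WT change was 0.0019 for H2-M2 and -0.058 for H2-T22 in cDC2-like cells, 0.011 for H2-T22 in mature DC-like cells. At Leiden resolution 0.5, the panobinostat change was -0.019 for H2-Q6 and 0.021 for H2-T22 in cDC2-like cells. After thinning to 2000 UMIs, the difference between disease states was -0.066 for H2-M3 and -0.10 for H2-Q6 in mature DC-like cells, -0.40 for H2-M3, 0.19 for H2-Q6, 0.025 for H2-Q7 and 0.20 for H2-T23 in pDC-like cells. After thinning to 2000 UMIs, the leukemia against WT change was 0.14 for H2-T22 in cDC1-like cells, -0.043 for H2-T22 in cDC2-like cells, -0.020 for H2-M3 in pDC-like cells. After thinning to 2000 UMIs, the panobinostat change was -0.035 for H2-T22 in cDC1-like cells, 0.065 for H2-T22 in cDC2-like cells, -0.011 for H2-M3 in mature DC-like cells, -0.021 for H2-Q6 in pDC-like cells. With DESeq2, the difference between disease states was -0.031 for H2-T22 in pDC-like cells. With DESeq2, the leukemia against WT change was 0.0031 for H2-T22 in mature DC-like cells. With RLE scaling, the difference between disease states was -0.0031 for H2-T22 in pDC-like cells. In leukemia samples alone, the panobinostat change was -0.14 for H2-Q6 and -0.17 for H2-Q7 in cDC2-like cells, -0.15 for H2-T22 in mature DC-like cells. In leukemia samples alone with the replicate block, the panobinostat change was -0.14 for H2-Q6 and -0.18 for H2-Q7 in cDC2-like cells, -0.16 for H2-T22 in mature DC-like cells.

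With single samples left out, the difference between disease states ran from -0.11 to 0.0015 for H2-M3, -0.081 to 0.20 for H2-Q6 and -0.060 to 0.036 for H2-T23 in cDC1-like cells, -0.71 to 1.72 for H2-M2 and -0.18 to 0.062 for H2-M3 in cDC2-like cells, -0.10 to 0.20 for H2-M3, -0.065 to 0.15 for H2-Q6 and -0.12 to 0.0030 for H2-Q7 in mature DC-like cells, -0.021 to 0.094 for H2-M3 and -0.10 to 0.090 for H2-T22 in pDC-like cells. With single samples left out, the leukemia against WT change ran from -0.058 to 0.17 for H2-Q7 and -0.20 to 0.0094 for H2-T22 in cDC1-like cells, -0.16 to 0.33 for H2-Q6, -0.021 to 0.49 for H2-Q7, -0.22 to 0.25 for H2-T22 and -0.046 to 0.22 for H2-T23 in cDC2-like cells, -0.76 to 0.11 for H2-M2, -0.049 to 0.085 for H2-M3, -0.24 to 0.23 for H2-T22 and -0.034 to 0.13 for H2-T23 in mature DC-like cells, -1.4e-06 to 0.065 for H2-M3, -0.27 to 0.016 for H2-Q6, -0.024 to 0.13 for H2-T23 and -1.20 to 0.18 for Hfe in pDC-like cells. With single samples left out, the panobinostat change ran from -0.14 to 0.19 for H2-Q6, -0.17 to 0.10 for H2-Q7 and -0.22 to 0.10 for H2-T22 in cDC2-like cells, -0.0034 to 0.16 for H2-M3 and -0.14 to 0.13 for H2-T22 in mature DC-like cells, -0.087 to 0.17 for H2-Q6 and -0.042 to 0.088 for H2-T22 in pDC-like cells.

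Counts of all genes called moved by over 1.5 times. For the disease state difference in cDC1-like cells, 72 were called, against 16 to 205 under the alternatives and 16 with DESeq2. For the disease state difference in cDC2-like cells, 81 were called, against 5 to 198 under the alternatives and 5 with DESeq2. For the disease state difference in mature DC-like cells, 35 were called, against 0 to 162 under the alternatives and 3 with DESeq2. For the disease state difference in pDC-like cells, 33 were called, against 3 to 50 under the alternatives and 3 with DESeq2. For the leukemia against WT change in cDC1-like cells, 1245 were called, against 319 to 1468 under the alternatives and 532 with DESeq2. For the leukemia against WT change in cDC2-like cells, 13 were called, against 5 to 189 under the alternatives and 5 with DESeq2. For the leukemia against WT change in mature DC-like cells, 197 were called, against 77 to 438 under the alternatives and 110 with DESeq2. For the leukemia against WT change in pDC-like cells, 153 were called, against 33 to 233 under the alternatives and 33 with DESeq2. For the panobinostat change in cDC1-like cells, 423 were called, against 11 to 657 under the alternatives and 140 with DESeq2. For the panobinostat change in cDC2-like cells, 11 were called, against 0 to 173 under the alternatives and 4 with DESeq2. For the panobinostat change in mature DC-like cells, 59 were called, against 0 to 333 under the alternatives and 20 with DESeq2. For the panobinostat change in pDC-like cells, 14 were called, against 4 to 101 under the alternatives and 4 with DESeq2. For the panobinostat effect in 1 class against the other 3, 5 genes were called in the cDC1-like contrast, against 0 to 67, 0 genes were called in the cDC2-like contrast, against 0 to 29, 0 genes were called in the mature DC-like contrast, against 0 to 86, 2 genes were called in the pDC-like contrast, against 0 to 39, each highest count without the low-count filter.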
